A study of Mus musculus with 6 samples.

Results

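The genes described here are 8 genes of MHC class II antigen presentation in mouse macrophages: the chains H2-Aa, H2-Ab1 and H2-Eb1, the exchange factor genes H2-DMa, H2-DMb1 and H2-DMb2, the invariant chain gene Cd74 and the transactivator gene Ciita. They were chosen by symbol, and all 8 were found among the 19386 genes listed in the authors' deposited table. The macrophages were grown from bone marrow of wild-type C57BL/6 mice that had breathed cigarette smoke or room air, with 3 libraries in each group, and RNA was taken on day 11 of culture. The medium held L929 supernatant, which supplies the growth factor for macrophages, and no agent given to the culture to raise class II genes is named in the labels. The age of the mice and the dose and length of exposure are not given in the sources used here, and the labels do not say which mouse gave which library. Smoke reached the animal and not the dish, so the comparison asks whether exposure in life left a difference in class II genes of macrophages grown afterwards.

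MHC class II molecules are pairs of an alpha and a beta chain that carry peptides from swallowed proteins to the cell surface, where CD4 T cells read them. The invariant chain escorts each new pair to the endosome and is cut there to a short remnant, and the H2-DM pair then swaps that remnant for peptide. Ciita switches the whole set on by joining factors that sit on conserved boxes of class II promoters, and in macrophages it is known as a target of interferon-gamma.

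The expression values are the authors' group means of size-factor-normalized counts and their DESeq2 comparison, fitted over 24 libraries of which 6 belong here. A value per library is not used here for expression, so which libraries of a group were high or low, and whether the groups overlapped, is not reported. Library depth is unknown for the same reason. In the splicing table, the number of events without a value ranged from 1 to 398 of 10376 in room air libraries and from 50 to 4169 in smoke libraries, with cigarette smoke replicate 1 the sparsest. The RNA came from whole cultures, in which fewer cells of a type and less RNA per cell cannot be told apart.

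The promoters of 5 of the 8 genes were in the RefSeq table of GRCm38.p6, which spans 250 bases before to 50 after each start. Of these genes, 3 held both the X box, as searched here, and the Y box, on which the class II factors are known to sit. H2-Aa held the Y box with a cyclic AMP response element before it. The X box letters searched here came from the other 3 promoters, so the missing match in H2-Aa does not show that it lacks an X box. The stretch around the boxes is shown for these 4 genes because it lets their spacing and letters be compared. The capitals mark the X box, searched as AACNGATGATG, and the Y box, an inverted CCAAT searched as TGATTGG. The X box letters are the core GATGATG and the 4 bases before it, with N where those 3 promoters differ. In H2-Aa, where these letters did not match, the capitals mark the cyclic AMP response element TGACGTCA and the Y box. Each run is written along the gene's own strand.
H2-Eb1 (chr17:34305763-34305827, plus strand): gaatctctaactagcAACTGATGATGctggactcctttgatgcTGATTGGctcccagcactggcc
H2-DMb1 (chr17:34153084-34153149, plus strand): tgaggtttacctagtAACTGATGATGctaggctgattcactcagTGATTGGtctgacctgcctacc
H2-DMb2 (chr17:34145113-34145178, plus strand): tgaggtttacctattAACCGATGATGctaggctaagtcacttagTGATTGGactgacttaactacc
H2-Aa (chr17:34287852-34287912, minus strand): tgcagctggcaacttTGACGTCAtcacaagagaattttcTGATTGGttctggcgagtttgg

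The Y box began 50 bases before the start in H2-Aa, 61 in H2-Eb1, 63 in H2-DMb1 and 92 in H2-DMb2. Between the end of the X box and the Y box lay 17 bases in H2-Eb1 and 18 in H2-DMb1 and H2-DMb2. In H2-Aa, 16 bases lay between the response element and the Y box. Searched on both strands, TGATTGG was present in 7.82% of the 32851 promoters of the table, TGACGTCA in 1.79% and AACNGATGATG in 20 promoters (0.0609%). The letters of the X box were taken from these very promoters, so their rarity elsewhere is a description of this search. H2-DMb1, H2-DMb2 and H2-Eb1 were the 3 genes of the table whose promoters held AACNGATGATG and TGATTGG on the sense strand. Neither of the 2 promoters listed for H2-DMa held any of these 3 motifs, and the second held the shorter inverted CCAAT letters ATTGG, which TGATTGG contains and which 37.4% of promoters held. Both lie upstream of 34135182, where the spliced transcripts of H2-DMa began in the authors' merged annotation, and the sequence before that start was not searched. H2-Ab1, Cd74 and Ciita were not matched.

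All classical class II chains had higher group means after smoke and none of them passed the test. For H2-Aa, which encodes the alpha chain of the I-A molecule (ENSMUSG00000036594.14, chromosome 17, 34282744 to 34287823, minus strand, GRCm38), the authors' deposited table gave a mean of 75.6 normalized counts after room air and 144 after smoke. On the log2 scale it was 0.94 higher with a standard error of 0.77, and the adjusted p in the authors' deposited table was 0.508. Its partner H2-Ab1, the beta chain of I-A (ENSMUSG00000073421.5, chromosome 17, 34257689 to 34269419, plus strand), stood at 65.9 and 125 in the authors' deposited table, 0.94 higher in log2 (standard error 0.65, adjusted p 0.412). H2-Eb1, the beta chain of the I-E molecule (ENSMUSG00000060586.10, chromosome 17, 34305867 to 34316674, plus strand), stood at 36.2 and 68.8 in the authors' deposited table, 0.95 higher in log2 (standard error 0.75, adjusted p 0.490). Mice of the C57BL/6 strain lack the alpha partner of I-E, so this chain is known not to form a surface I-E molecule in them. The annotated gene Gm20513 overlaps H2-Eb1 on the opposite strand, and whether counting used strand is not given in the sources used here. The 3 fold changes of 1.92, 1.92 and 1.93 were nearly equal. Their 95% Wald intervals, computed from the deposited standard errors, ran from 0.672 to 5.50 for H2-Aa, from 0.788 to 4.66 for H2-Ab1 and from 0.692 to 5.37 for H2-Eb1, so neither no change nor a rise of more than 4 times lay outside them.

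Cd74 had the largest difference of the 8 genes. The gene of the invariant chain (ENSMUSG00000024610.14, chromosome 18, 60803848 to 60812652, plus strand) averaged 355 normalized counts after room air and 1047 after smoke, as the authors' deposited table gives it. It was 1.56 higher in log2 (standard error 0.77), a fold of 2.95 with a 95% Wald interval from 1.03 to 8.44. The authors' deposited table gave an unadjusted p of 0.0434 that became 0.202 once adjusted, so it did not pass the threshold over all genes. A group mean of Cd74 may rest on 1 library: in the authors' deposited rMATS table the reads over an intron of Cd74 were far more numerous in 1 library of a sample set than in the rest of either set. The groups of these sets are not stated, so those reads were not used and neither its group nor the mean without that library is known here. A fold change at least as large was found in 1.38% of the 12082 genes with an adjusted p. The microRNA gene Mir5107 lies on the same strand within Cd74 and had means of 5.91 and 17.2 in the authors' deposited table, and its reads cannot be told from those of the host.

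H2-DMa, the alpha chain of the exchange factor, was the member that passed the threshold. H2-DMa (ENSMUSG00000037649.9, chromosome 17, 34119541 to 34139101, plus strand) averaged 61.7 normalized counts after room air and rose to 108 after smoke in the authors' deposited table, by 0.85 in log2 (standard error 0.29, adjusted p 0.0492). The fold was 1.80, with a 95% Wald interval from 1.21 to 2.67. This call lay just inside the threshold and was lost when the p-values of all listed genes were adjusted together (adjusted p 0.0774) and when the part of each fold change that follows GC content and length of the transcript was removed (0.61 in log2, adjusted p 0.397). The annotated 5' part of H2-DMa overlaps Brd2 on the opposite strand and the noncoding gene CR974462.3 on its own strand, so reads there are uncertain. Brd2 had means of 1280.4 and 1283 in the authors' deposited table, 0.01 apart in log2 (standard error 0.14). In the authors' merged annotation the spliced transcripts of H2-DMa began at 34135182, beyond the end of Brd2 at 34122634.

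The beta chains of the exchange factor come from neighbouring gene copies. H2-DMb1 (ENSMUSG00000079547.3, chromosome 17, 34153072 to 34160230, plus strand) stood at 161 and 196 normalized counts in the authors' deposited table, 0.29 higher in log2 (standard error 0.20, adjusted p 0.409). H2-DMb2 (ENSMUSG00000037548.14, chromosome 17, 34143307 to 34151555, plus strand) stood at 8.50 and 13.98 in the authors' deposited table, 0.73 higher in log2 (standard error 0.51, adjusted p 0.409). H2-DMb1 thus had the smallest fold change of the 8 genes at 1.22, with a 95% Wald interval from 0.931 to 1.61. The copies are alike in sequence, and how reads that match both were counted is not given in the sources used here, so the split between them is uncertain.

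Ciita was measured at a low level. The transactivator gene (ENSMUSG00000022504.10, chromosome 16, 10480059 to 10528418, plus strand) stood at 12.7 and 19.7 normalized counts in the authors' deposited table, 0.72 higher in log2 (standard error 0.55, adjusted p 0.470). Ciita is known for separate promoters used in dendritic cells, in B cells and after interferon-gamma, each with its own first exon. The authors' merged annotation held 8 spliced transcripts of Ciita whose first exons ended at 3 positions, 10480426, 10488424 and 10489864. No splicing event of the gene was listed in the tables used here, so the share of each first exon was not measured. The 3' part of Ciita overlaps Dexi on the opposite strand, which had means of 28.3 and 29.8 in the authors' deposited table.

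Set per kilobase of the principal transcript in GENCODE M21, the room air means spanned from 2.11 normalized counts per kilobase for Ciita to 252 for Cd74. The order in room air was Cd74, H2-DMb1 at 115, H2-Aa at 67.0, H2-Ab1 at 54.4, H2-DMa at 37.2, H2-Eb1 at 21.7, H2-DMb2 at 5.97 and Ciita. In cigarette smoke it differed at no place: Cd74 stood at 743 normalized counts per kilobase, H2-DMb1 at 139.9, H2-Aa at 128, H2-Ab1 at 103, H2-DMa at 65.4, H2-Eb1 at 41.2, H2-DMb2 at 9.82 and Ciita at 3.27. Because the deposited means carry no spread over libraries, neighbours in this order were not tested against each other. The alpha and beta chains of I-A lay close together in each group, while H2-DMb1 was well above H2-DMa in room air and in smoke.

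**Figure D1:**
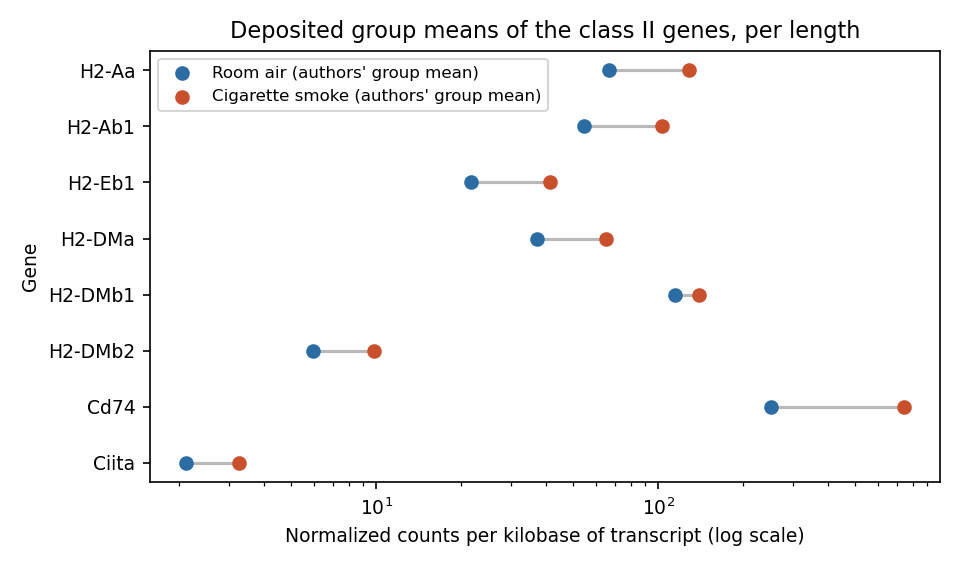
Group means of the 8 class II genes in the authors' deposited table, in normalized counts per kilobase of the principal transcript on a log axis, for room air (blue) and cigarette smoke (orange). Every smoke mean lies to the right of the room air mean, with the widest gap at Cd74 and the narrowest at H2-DMb1; the means carry no error bars because no value per library was used.

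Of the 8 genes, 1 was called at an adjusted p under 0.05 by the authors' deposited table, against 7.69% of all 12082 genes with an adjusted p (4.15% higher and past the threshold), and 2 had an unadjusted p under 0.05, against 22.8% of those genes. All 8 had passed the authors' filter on low levels, so each has an adjusted p. At these numbers the count of calls is a description and is not set apart from that of all genes. In the authors' deposited table all 8 had a log2 fold change above 0, where 49.7% of all tested genes did. Their median was 0.89, against -0.00 (-0.00285) over all tested genes. The genes are known to share a regulator, so their common direction does not come from 8 independent measurements. With the trend in GC content and length removed, all 8 remained above 0 with a median of 0.66, and none passed the threshold. The members had a median transcript GC content of 54.5%, against 49.4% over the genes tested, and the trend itself gave between -0.04 for H2-Aa and 0.36 for H2-Ab1.

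**Figure D2:**
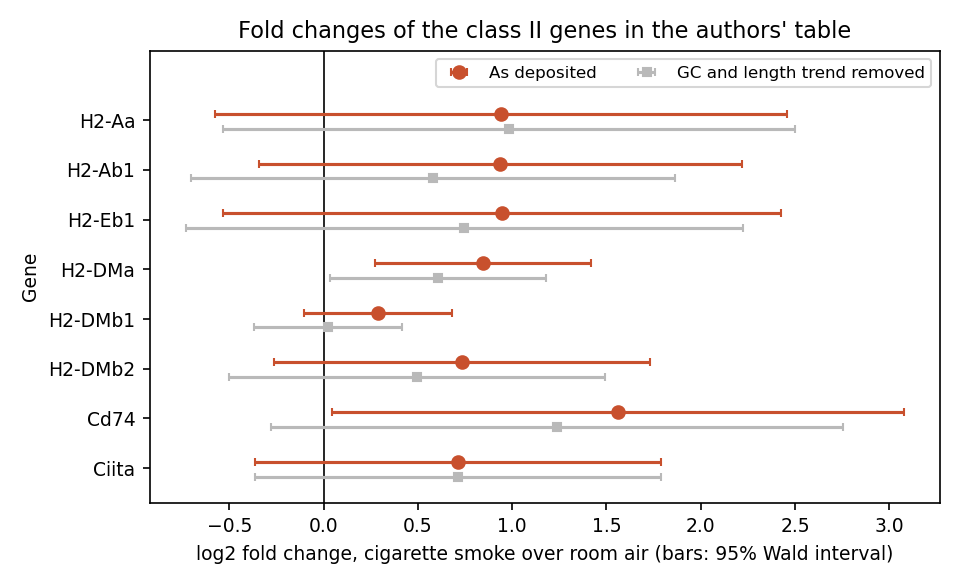
Log2 fold changes of the 8 genes (cigarette smoke over room air) as deposited by the authors (orange circles) and after the trend with transcript GC content and length was removed (grey squares), with bars for the 95% Wald interval from the deposited standard errors. The deposited intervals of H2-DMa and Cd74 lie above 0 and those of the other 6 genes include it; with the trend removed, the interval of H2-DMa still lies above 0 before any adjustment over all genes.

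The standard errors ranged widely within the set. For H2-Aa, H2-Ab1, H2-Eb1 and Cd74 they lay between 0.65 and 0.77 in the authors' deposited table, where the median over all tested genes was 0.21, and 4.21% to 6.19% of genes had one as large. Ciita and H2-DMb2 followed at 0.55 and 0.51, reached by 9.13% and 10.8% of genes. H2-DMa and H2-DMb1 had standard errors of 0.29 and 0.20, reached by 30.5% and 52.5% of genes. H2-Aa, H2-Ab1, H2-Eb1 and Cd74 also had the highest ratios of the 8 in the authors' mean over all 24 libraries, of which 18 are not analysed here. H2-Aa had a 24-library mean of 862 normalized counts, 11.4 times its room air mean, and Cd74 one of 4153, 11.7 times. The ratios were 12.3 for H2-Ab1 and 15.5 for H2-Eb1, while those of H2-DMa, H2-DMb1, H2-DMb2 and Ciita were 1.64, 1.33, 1.04 and 2.61, with a median of 1.08 over all tested genes. A ratio as large as that of H2-Aa was found in 2.97% of tested genes. The spread that entered these standard errors was estimated over libraries that include ones with far higher class II levels, and its share in the missing calls was not tested.

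**Figure D3:**
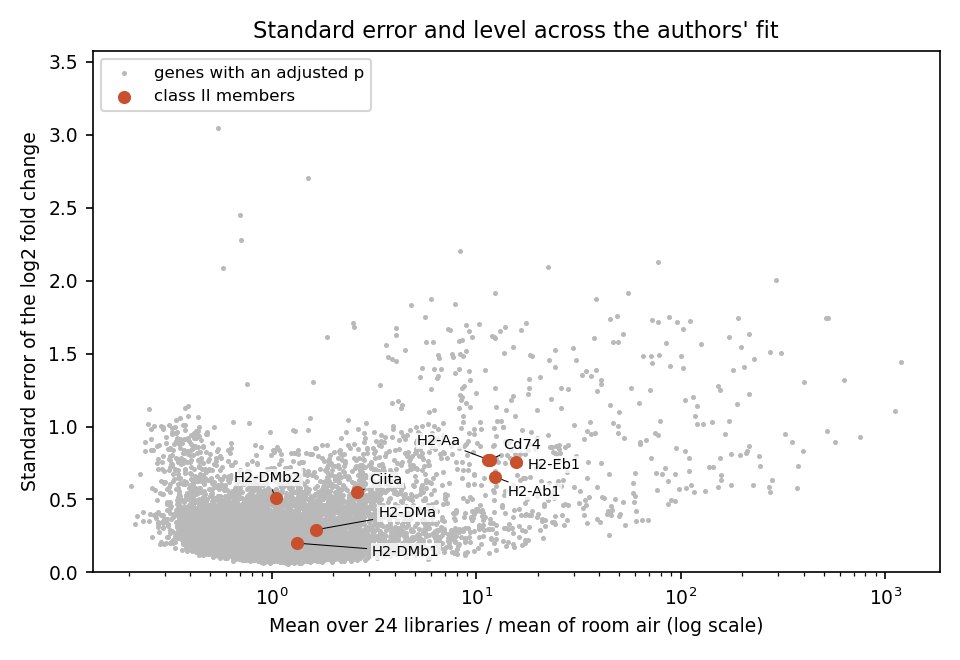
Standard error of the log2 fold change, from the authors' deposited table, plotted against the ratio of the 24-library mean to the room air mean (log axis) for genes with an adjusted p and a room air mean above 0 (grey) and the 8 class II genes (orange). H2-Aa, H2-Ab1, H2-Eb1 and Cd74 lie at ratios of 11.4 to 15.5 and standard errors of 0.65 to 0.77, and the other 4 members at ratios of 1.04 to 2.61 and standard errors of 0.20 to 0.55.

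Outside the members, 2 genes of the class II, interferon-gamma, costimulation and class I lists passed the threshold, Spi1 and Socs1. Of the 9 class II chain genes, 7 had an adjusted p, 6 of them members. The seventh, H2-Ob, a chain of the H2-DM inhibitor H2-O, had the lower mean after smoke, at 22.1 and 16.5 normalized counts in the authors' deposited table (log2 -0.52, standard error 0.61, adjusted p 0.670). Its partner H2-Oa had means of 4.77 and 6.75 in the authors' deposited table and no adjusted p, and H2-Eb2 was listed at 0 in room air and 0.313 in smoke. Among the 10 processing genes beside Cd74, which encode the endosomal proteases and other proteins that act on antigen, the invariant chain or class II, none passed the threshold, and their median was 0.09 in log2, taken from the authors' deposited table. The most abundant were Ctsb and Ctsd, for the proteases cathepsin B and cathepsin D, 0.13 and 0.12 higher in log2 (standard errors 0.18 and 0.15) in the authors' deposited table.

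Among the 10 transcription factor genes beside Ciita, 1 passed the threshold. Spi1, which encodes the myeloid factor PU.1, rose by 0.41 in log2 in the authors' deposited table, with means of 1146 and 1526 normalized counts (standard error 0.11). The authors' deposited table gave an adjusted p of 0.00813, which became 0.856 with the trend in GC content and length removed, where Spi1 was 0.09 higher in log2. In the authors' deposited table Irf8, a factor of monocyte development, was 0.33 higher in log2 (standard error 0.27, adjusted p 0.518). In the authors' deposited table the 10 factors had a median of -0.02 in log2. Among the genes of the factors known to hold the X and Y boxes, Nfya and Nfyc had higher means after smoke and Rfx5, Rfxank, Rfxap, Nfyb and Creb1 lower ones, and none passed the threshold. In the 9 genes of the interferon-gamma route, 5 were higher and 4 lower, and 1 passed the threshold. That gene, Socs1, an inhibitor of the pathway that is itself induced by it, rose in the authors' deposited table with means of 2.88 and 9.84 normalized counts (1.67 in log2, standard error 0.57, adjusted p 0.0457), a low level. With the trend in GC content and length removed, Socs1 was 1.42 higher in log2 with an adjusted p of 0.232. Jak1, a kinase of the route and among its most abundant genes, was at -0.07 in log2 (standard error 0.25) in the authors' deposited table.

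The 6 costimulation genes, whose surface proteins accompany class II in T cell contact, held 5 with an adjusted p, 4 of them higher and none past the threshold. Cd274, which encodes PD-L1, stood at 158 and 341 normalized counts in the authors' deposited table, 1.11 higher in log2 (standard error 0.46, adjusted p 0.111). Icosl, a ligand gene for T cell help, stood at 159 and 167 in that table. All 8 genes of the class I list, which present peptides to CD8 T cells, had higher means after smoke: their median was 0.17 in log2, taken from the authors' deposited table, and none passed the threshold. H2-D1, a class I heavy chain gene, was 0.22 higher in log2 (standard error 0.18) in the authors' deposited table and B2m, the class I light chain gene, 0.02 higher (standard error 0.17). The difference between the class II and class I genes was not tested.

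**Figure D4:**
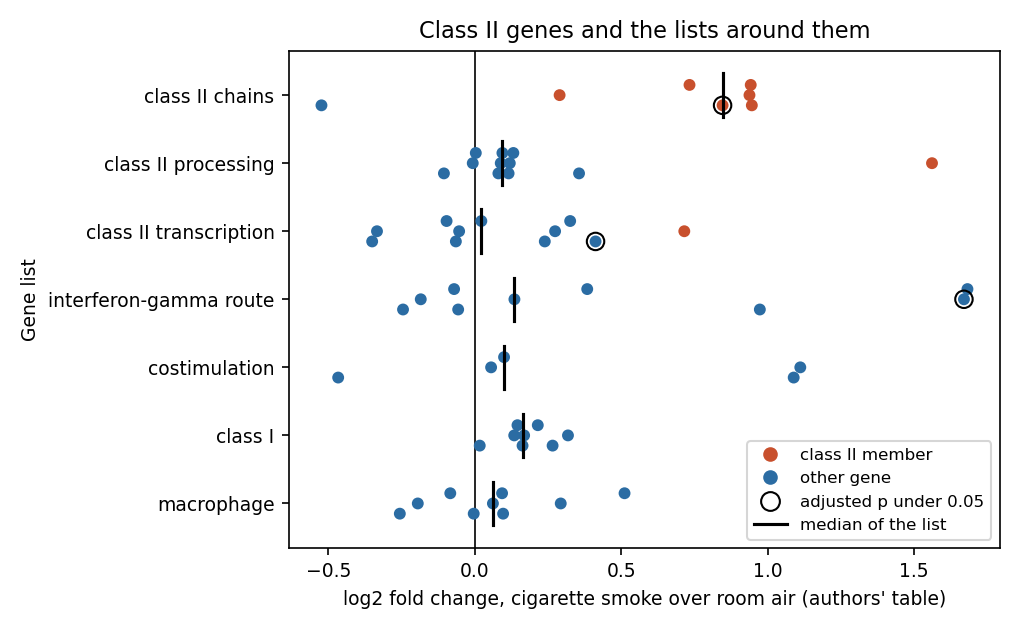
Log2 fold changes in the authors' deposited table for genes with an adjusted p, one row for each of the 6 class II, interferon-gamma, costimulation and class I lists and the macrophage markers, with class II members in orange, other genes in blue, a ring around genes with an adjusted p under 0.05 and a bar at the list's median. The class II chains have a median of 0.85, and the medians of the other lists drawn lie between 0.02 and 0.17.

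On chromosome 17 the 6 chain genes among the members lie within 197 kb, interleaved with genes of class I peptide supply. Within that span and 100 kb on each side, 12 other genes had an adjusted p. Of these 12, 9 were higher after smoke in the authors' deposited table and none passed the threshold, with log2 fold changes from -0.52 for H2-Ob to 0.32 for Slc39a7, a zinc transporter gene. Tap1, Tap2, Psmb8 and Psmb9, which sit between H2-DMb1 and H2-Ab1 and supply peptides to class I, had log2 fold changes of 0.15, 0.16, 0.32 and 0.13 in the authors' deposited table. The median of the 12 neighbours was 0.14, against 0.89 over the members.

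Markers of the cultures fitted macrophages in each group. All 9 macrophage markers were measured, with a summed level of 53568 normalized counts for room air and 55539 for smoke in the authors' deposited table, and none passed the threshold. Lyz2 and Csf1r, for lysozyme and the receptor of the macrophage growth factor, were at 0.10 (standard error 0.25) and -0.0038 (standard error 0.15) in log2 in the authors' deposited table. Dendritic cells and B cells also carry class II, so their markers bear on the members. Of 8 dendritic markers, Flt3, Ccr7 and Cd209a were not listed, Zbtb46, Xcr1, Clec9a and Siglech had group means of at most 1.02 normalized counts, and only Itgax, which macrophages can express, was above 10. Itgax stood at 31.7 and 108 normalized counts in the authors' deposited table, 1.79 higher in log2 (standard error 0.63, adjusted p 0.0571), and made up most of the list's sums of 33.3 in room air and 109 in smoke. Of 7 B cell markers, 5 were listed, and Cd79a and Ms4a1 were at most 0.129. Cd79b stood at 6.06 normalized counts in room air and 4.04 in smoke, without an adjusted p. The sum of the B cell list was 158 in room air and 143 in smoke, mostly Ighm at 139 and 118, with Cd22 at 12.0 and 20.2. The neutrophil list held 2 listed genes of 8, S100a8 and Ltf, with sums of 0.122 and 0.195, and of the 5 T cell markers only Cd4 was listed, at 29.0 and 22.4. The part of Itgax-expressing or other cells in the class II values was not tested.

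Splicing was measured in 1 of the 8 genes. JuncBASE, a program that classifies splicing events from reads across junctions, listed 1 event within the members, a cassette exon of Cd74, and the 3 chains of I-A and I-E, the H2-DM genes and Ciita had none. The exon (chromosome 18, 60811294 to 60811485, plus strand) is the seventh of 9 in an annotated transcript, is 192 bases or 64 whole codons long, and is coding in both of the 2 GENCODE M21 transcripts that include it. In 1 annotated transcript it is skipped from 60810419 to 60811858. It is known to encode a thyroglobulin-like domain that sets the long form of the invariant chain apart from the more common short form.

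The Cd74 exon was included at 15.28%, 15.04% and 8.57% in the room air libraries, in order of replicate number. In the smoke libraries its inclusion was 10.53%, 15.22% and 19.11%. The groups overlapped, with the lowest value in room air and the highest in smoke. The means were 13.0% ± 3.81 (SD, n = 3) and 14.95% ± 4.30 (SD, n = 3). They lay 1.99 percentage points apart, which is smaller than the spread in either group. By an exact permutation test, two-sided, p was 0.6, where 3 against 3 libraries cannot go below 0.1. In limma, fitted over all 10376 events on the log2 odds of inclusion, the difference was 0.23 (SE 0.52, 95% interval -1.01 to 1.47) with an adjusted p of 0.848. That interval holds odds of inclusion from 0.495 to 2.78 times those of room air, so a change of 2 times in either direction lies within it. The number of reads behind these levels is unknown. The difference changed sign without room air replicate 3 (-0.207 percentage points) or without cigarette smoke replicate 3 (-0.0883).

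**Figure D5:**
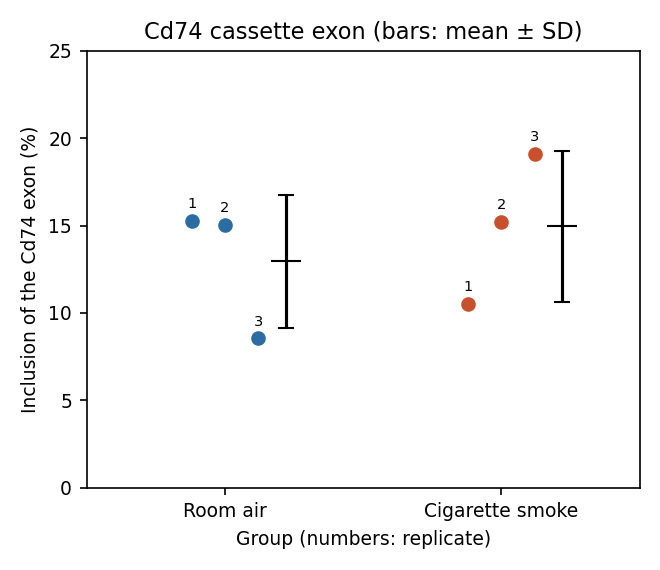
Percent inclusion of the Cd74 cassette exon in each of the 6 libraries, numbered by replicate, with the mean and SD of each group beside the points. The smoke values run from 10.53% to 19.11% and the room air values from 8.57% to 15.28%, so the groups overlap.

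Across the table limma called 0 of 10376 events (0%) at an adjusted p under 0.05, while 1125 had an unadjusted p under 0.05 and the authors' deposited comparison had 431 such events and none past its corrected threshold. Among the 735 cassette exons with a value in all 6 libraries, the median absolute difference was 2.32 percentage points, and 57.1% had a larger one than the Cd74 exon. The authors' deposited rMATS table of retained introns called 14.5% of 3887 introns at a false discovery rate under 0.05 and listed 1 intron within the members. This intron of Cd74 (chromosome 18, 60812366 to 60812422, plus strand) is 57 bases long, is spliced out in an annotated transcript and lies within a noncoding part of an exon of 2 others. Its difference between the sample sets in the authors' deposited table was 0 percentage points, with a false discovery rate of 1.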

How the data were processed

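Total RNA was sequenced from 6 macrophage cultures with a directional kit, per the labels' protocols. The authors used STAR, DESeq2, SAMtools 1.9, bedtools 2.27.1 and the build mm10, per the submitters' processing notes, which give no roles; how reads were counted is not given in the sources used here. Per the file headers, the signal columns deposited by the authors are means of size-factor-normalized counts per group and over 24 libraries. The authors also deposited the log2 fold changes with standard errors, the Wald score, and p-values before and after adjustment. The header names the log2 fold changes as maximum a posteriori estimates; for the 8 genes they differ from the log2 ratio of the deposited group means by at most 0.0835. Percent inclusion per library and a score of differences come from the authors' JuncBASE and rMATS tables, and 6 rMATS columns of per-sample values were not used because the groups of their sample sets are not stated, other than to state beside Cd74 that they were uneven.

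Genes were matched by identifier to GENCODE M21 (GRCm38). The 95% Wald intervals are the deposited log2 fold change ± 1.96 standard errors. A trend in GC content and log2 length of the longest transcript was fitted to 12071 genes by weighted least squares with splines of 4 degrees of freedom with statsmodels 0.14.6 and patsy 1.0.2. Adjustment was by the Benjamini-Hochberg method. Inclusion levels p were tested as log2((p + 1)/(100 - p + 1)) with limma 3.58.1 in R 4.3.3 for events with values in at least 2 libraries of each group. Both methods were checked on simulated data. The limma and permutation p-values for splicing measure the spread between these 6 libraries. The expression p-values are the authors' and rest on a spread estimated over the 24 libraries of their fit. The members, lists and tests were chosen with earlier results of these data known. In each list, genes past the threshold and the 2 of highest level were named, except for items not reported here; others named were chosen after their values were seen. Alternatives covered thresholds, filters, pseudocounts, the trend, a replicate block and single libraries left out.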

Additional observations from a re-analysis of the deposited data

How the results depend on the processing

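The count of class II genes past the threshold, 1 (H2-DMa), fell to 0 at an adjusted p under 0.01, with the p-values of all listed genes adjusted together, with the GC content trend removed and with the GC content and length trend removed. It stayed at 1 at a threshold of 0.1 and over genes that averaged 50 normalized counts or more. Over all genes the calls went from 929 to 354 with the GC content trend removed and to 153 with the GC content and length trend removed. Each of the 8 genes kept a log2 fold change above 0 with pseudocounts of 1 and 10 on the group means and with the trend removed, the lowest being 0.02 for H2-DMb1 with the trend removed. The Cd74 exon was not called under any of 11 alternatives, and its difference ranged from -0.207 to 4.202 percentage points with single libraries left out and was 0.18 between medians. With the replicate number as a block the count of called events in these genes was 0 and the adjusted p of the Cd74 exon was 0.878. Libraries of equal number did not deviate together (correlations of -0.0076, -0.0494 and -0.0829 across events), so the block is given as a check. Over all events limma called 0, against 241 with a pseudocount of 0.1, 5 on untransformed percentages, 23 among events with 6 values and 717 without cigarette smoke replicate 3; the cause was not tested. Depth per library is unknown, and no fold change could be recomputed without a library.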

Other observations

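Genes outside the members that interferon-gamma is known to induce, picked here after their values were seen, were also higher after smoke in the authors' deposited table without passing the threshold. Gbp2, an interferon-induced GTPase gene, stood at 153 and 299 normalized counts in the authors' deposited table, 0.97 higher in log2 (standard error 0.35, adjusted p 0.0571). Cxcl9, a chemokine gene, stood at 5.14 and 17.5 in the authors' deposited table (1.68 in log2, standard error 0.80, adjusted p 0.182). Cd40, a costimulation receptor gene, stood at 30.1 and 65.6 in the authors' deposited table (1.09 in log2, standard error 0.49, adjusted p 0.151). Their 24-library means stood at 40.1, 194 and 93.6 times the room air means, above the 11.4 to 15.5 times of H2-Aa, H2-Ab1, H2-Eb1 and Cd74. Against these, Ifngr1, a receptor gene of the same route, had a lower mean after smoke, at -0.25 in log2 (standard error 0.16) in the authors' deposited table, and did not pass the threshold.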
